A study of Mus musculus with 7 samples.

Results

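The guanylate-binding and immunity-related GTPases were measured as 8 named genes, Gbp2, Gbp3, Gbp6, Gbp7, Irgm1, Irgm2, Igtp and Iigp1, found by symbol among the 23845 rows of a table of RNA sequencing values. The libraries came from mouse splenocytes left after magnetic depletion of cells that carry CD43, a procedure that enriches resting B cells. The cKO group held 4 libraries of Foxp1 cKO mice, in which Foxp1, a forkhead transcription factor of lymphocytes, is conditionally deleted by a Cre active in B cells. The wild type group held 3 libraries labelled B6 WT, and both groups had the C57Bl/6 background. The labels give no age, name no control that carries the Cre, and do not say whether each library came from its own mouse, and the p-values therefore reflect variation among these libraries only, which may be technical. cKO 1 and 4 and wild type 2 and 3 were sequenced on lane 5, and cKO 2 and 3 and wild type 1 on lane 7. In bulk RNA, fewer cells of a type and less RNA per cell cannot be told apart.

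These 8 genes encode GTPases that cells make in response to interferons, above all interferon-gamma. Guanylate-binding proteins are large GTPases related to dynamin that assemble on the vacuoles of intracellular parasites and on bacteria. The immunity-related GTPases fall into effectors such as Iigp1 (Irga6), which loads onto parasite vacuoles and disrupts them, and regulators such as Irgm1, Irgm2 and Igtp (Irgm3), which sit on the membranes of the cell and keep the effectors inactive there. Interferon-gamma acts through the receptor chains Ifngr1 and Ifngr2 and the kinases Jak1 and Jak2, with gamma-activated sites (GAS) as the target letters in DNA, while interferon regulatory factors bind interferon-stimulated response elements (ISRE).

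Of the 8 genes, 6 had a window in the RefSeq promoter table for GRCm38.p6, and Gbp6 and Iigp1 did not. The stretch from base -120 to base -11 before the RefSeq start of each of these 6 is shown because it holds every match found in the 250 bases before these starts. It is written 5′ to 3′ on the strand of the gene. In GRCm38.p6 the stretches lie on the plus strand for Gbp2 at chr3:142620543-142620652, Gbp3 at chr3:142559924-142560033, Gbp7 at chr3:142530216-142530325, Irgm2 at chr11:58214857-58214966 and Igtp at chr11:58199436-58199545, and on the minus strand for Irgm1 at chr11:48871431-48871540. Capitals mark letter matches. The ISRE was searched as GAAA, 2 bases of any kind and GAAA again, which reads TTTC, 2 bases and TTTC on the other strand. The GAS was searched as TTCNNNGAA, which reads alike on both strands.
Gbp2: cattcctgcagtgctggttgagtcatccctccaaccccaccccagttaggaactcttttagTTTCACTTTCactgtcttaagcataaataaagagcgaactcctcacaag
Gbp3: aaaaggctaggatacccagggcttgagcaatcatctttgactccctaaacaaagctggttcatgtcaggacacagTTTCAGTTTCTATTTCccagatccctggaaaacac
Gbp7: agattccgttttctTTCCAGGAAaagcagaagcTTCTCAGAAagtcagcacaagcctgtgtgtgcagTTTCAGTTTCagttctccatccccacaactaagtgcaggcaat
Irgm1: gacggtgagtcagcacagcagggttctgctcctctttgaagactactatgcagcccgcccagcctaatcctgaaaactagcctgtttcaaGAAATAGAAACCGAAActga
Irgm2: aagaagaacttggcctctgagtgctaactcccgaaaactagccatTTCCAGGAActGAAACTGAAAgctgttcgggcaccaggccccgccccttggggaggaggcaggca
Igtp: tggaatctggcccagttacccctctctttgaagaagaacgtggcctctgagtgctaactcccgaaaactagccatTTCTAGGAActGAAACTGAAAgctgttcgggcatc

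All 6 windows held an ISRE match, against 2.98% of the 32851 promoter windows searched over the same 250 bases. The matches of Gbp3 and of Irgm1 were pairs that overlapped by a few letters. A GAS match stood beside the ISRE in Gbp7, Irgm2 and Igtp, and both motifs occurred together in 0.332% of all windows, with a GAS match in 7.02%. Gbp3 has a second RefSeq start, whose window held neither motif. The windows of Irgm2 and Igtp shared a stretch of 92 bases with 89 identical, which took in both motifs, while the best such stretch of any other pair was 13 bases or shorter. Irgm2 and Igtp lie side by side on chromosome 11. A letter match is a description and does not show that a factor bound there.

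**Figure D1:**
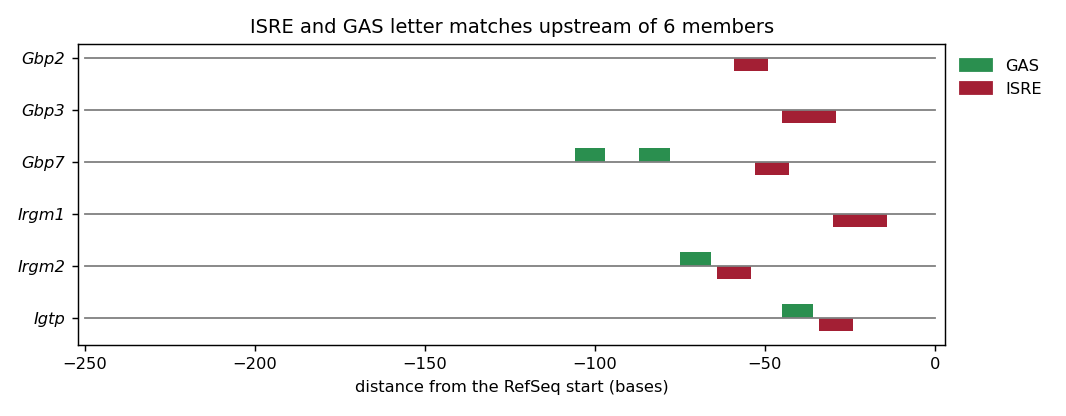
Positions of ISRE (red) and GAS (green) letter matches in the 250 bases before the RefSeq start of 6 of the genes; the x axis is the distance from that start in bases. Every gene has an ISRE match within 64 bases of its start, and Gbp7, Irgm2 and Igtp also have a GAS match.

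The libraries showed B cell markers throughout, and in none of the marker lists was a marker in the table at 0 in all libraries. Foxp1 was lower in every cKO library than in every wild type library, at 21.9 ± 4.90 FPKM (fragment counts scaled to transcript length and library size) in cKO (SD, n = 4) and 38.1 ± 4.66 FPKM in wild type (SD, n = 3), with limma adjusted p = 0.159 without the lane and 0.0104 with it. Between 9488 and 10419 rows per library reached 1 FPKM. The median gene tested stood lower in lane 7, at 5.25 to 6.36 FPKM, than in lane 5, at 7.74 to 9.54 FPKM, and 58.2% of the 10065 genes tested were called lower in lane 7 by limma, against 8.67% called higher. Depth was read from the smallest FPKM steps: a single fragment on a transcript of 1 kilobase was worth about 0.0243 FPKM in cKO 4, the shallowest library, against 0.0163 to 0.0217 FPKM elsewhere.

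Irgm1 was the most abundant of the 8 in both groups, averaging 26.4 ± 11.2 FPKM in cKO (SD, n = 4) and 27.2 ± 6.92 FPKM in wild type (SD, n = 3). Igtp, Gbp3 and Gbp2 followed at 12.5, 9.26 and 8.96 FPKM in cKO and at 11, 10.3 and 8.62 FPKM in wild type, then Irgm2, Gbp7, Iigp1 and Gbp6. The order of the means was the same in both groups. In cKO the ranges of all neighbours in that order overlapped except those of Iigp1 and Gbp6. In wild type the range of Irgm1 lay above that of Igtp, Gbp2 above Irgm2, and Gbp7 above Iigp1, while the other neighbours overlapped.

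**Figure D2:**
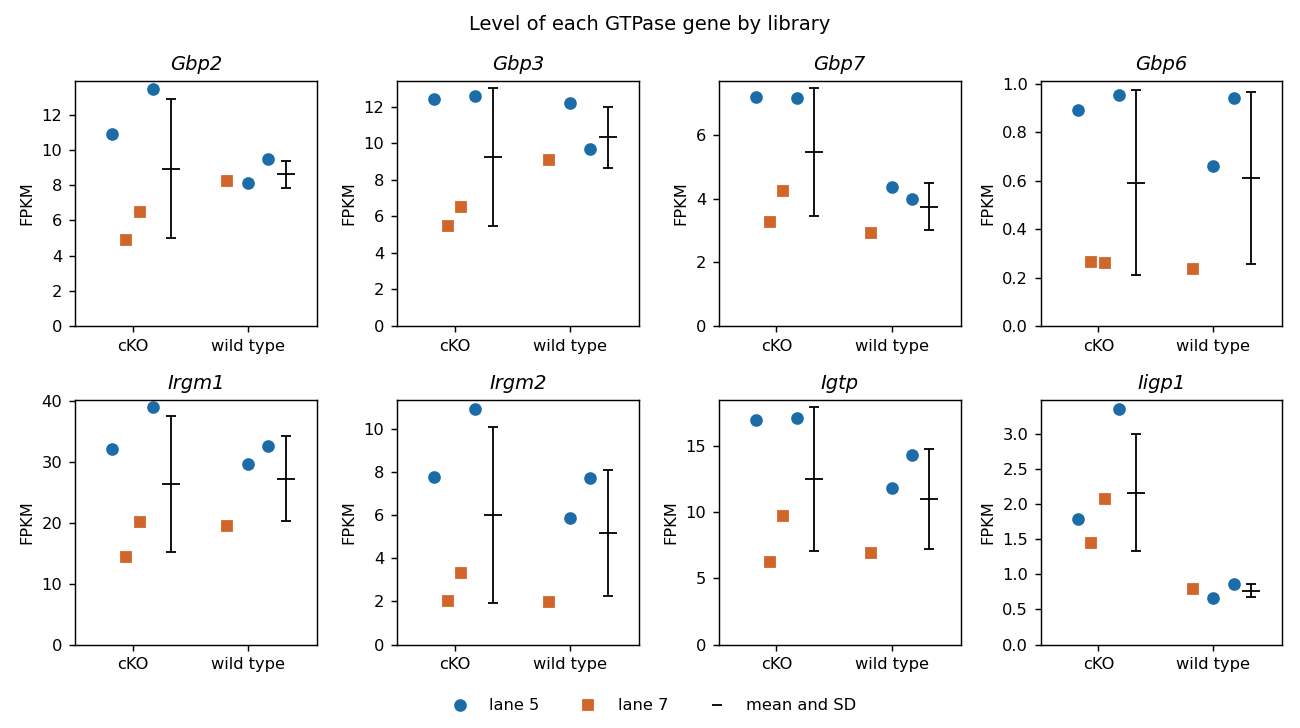
FPKM of each gene in every library (y axis), with cKO left of wild type; circles are lane 5, squares are lane 7, and the bar is the mean with its SD (n = 4 cKO, n = 3 wild type). The cKO libraries lie above all wild type libraries for Iigp1 alone among the 8 genes, at 1.45 to 3.36 FPKM in cKO and 0.665 to 0.857 FPKM in wild type.

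Of the effectors and regulators, the effector Iigp1 (chromosome 18, 60376029 to 60392629) showed the largest genotype difference among the members tested. It had 1.79, 1.45, 2.07 and 3.36 FPKM in cKO 1 to 4, against 0.786, 0.665 and 0.857 FPKM in wild type 1 to 3. The groups did not overlap, and cKO 4 was the highest. Over all genes tested, 7.99% had all cKO libraries above all wild type libraries and 2.14% had them below. The mean was 2.17 ± 0.836 FPKM in cKO (SD, n = 4) and 0.770 ± 0.0971 FPKM in wild type (SD, n = 3). On log2(FPKM + 0.5), which understates changes of low genes, its fold change was 1.03 (SE 0.28), and with p-values adjusted over all genes by limma it missed the threshold of 0.05 (adjusted p = 0.144, and 0.0795 to 0.592 with each library left out). With the lane as a term it rose by 1.07 (SE 0.22, limma adjusted p = 0.00842), and it also passed when each library was centred on its median (limma adjusted p = 0.0444), where it was the 1 of 7 tested members called and 2.31% of all genes were called higher and 0.705% lower. Within lanes the difference was 1.24 in lane 5 and 0.80 in lane 7, in which a single wild type library was available. The exact permutation p over libraries, two-sided, was 0.0571, and no smaller value can come from 4 against 3 libraries.

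Like Iigp1, most myeloid and NK markers were higher in every cKO library than in every wild type library. Of all genes tested, 7.99% were higher in this sense and 2.14% lower. Of 23 monocyte, macrophage and dendritic cell markers in the table, 18 had all cKO libraries above all wild type libraries, and their summed level was 1536.4 to 1949.7 FPKM in cKO against 729.8 to 944.2 FPKM in wild type. The 2 most abundant of them differed in this: Lyz2, the lysozyme of macrophages, had 318.8, 356.6, 214.2 and 436.4 FPKM in cKO 1 to 4 against 97.3, 76.1 and 104.9 FPKM in wild type 1 to 3, while Ctss, a lysosomal protease that B cells also make, overlapped between the groups at 195.6 to 432.3 FPKM in cKO and 278.2 to 350.9 FPKM in wild type. For NK cells 7 of 10 markers were higher in this sense, with sums of 41.0 to 98.3 FPKM in cKO and 17.5 to 24.9 FPKM in wild type, and for neutrophils 8 of 9, with 85.3 to 191.1 FPKM in cKO and 27.7 to 40.6 FPKM in wild type. Of T cell markers 0 of 14 did so, with sums of 20.7 to 67.3 FPKM in cKO and 16.3 to 31.2 FPKM in wild type. B cell markers summed to 2891.5 to 6678.9 FPKM in cKO and 4731.5 to 7307.9 FPKM in wild type, with 4 of 10 lower in every cKO library. In cKO 1 to 4 the NK sums were 98.3, 51.7, 41.0 and 91.5 FPKM. The monocyte, macrophage and dendritic cell sums were 1536.4, 1674.7, 1862.8 and 1949.7 FPKM in these libraries, and Iigp1 had 1.79, 1.45, 2.07 and 3.36 FPKM. The part of these cell types in the GTPase levels was not tested.

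The regulators differed by lane more than by genotype. Irgm1 (chromosome 11, 48865249 to 48871346), needed in mice for resistance to mycobacteria, had 32.1, 14.3, 20.2 and 39.0 FPKM in cKO 1 to 4, against 19.4, 29.7 and 32.6 FPKM in wild type 1 to 3. The 3 libraries of lane 7 were the lowest in both groups, and the groups overlapped. Igtp (chromosome 11, 58199556 to 58207592), which sits mainly on the endoplasmic reticulum, had 17.0, 6.27, 9.69 and 17.1 FPKM in cKO, against 6.89, 11.8 and 14.3 FPKM in wild type. Irgm2 (chromosome 11, 58214977 to 58222783), found at the Golgi, had 7.77, 2.03, 3.32 and 10.9 FPKM in cKO, against 1.99, 5.84 and 7.72 FPKM in wild type. Their lane 7 values were again below every lane 5 value, as was the median gene tested. The share of all genes that separated by lane in this way was not computed. None of the 3 passed the genotype threshold in limma, with fold changes of -0.11 for Irgm1, 0.13 for Igtp and 0.12 for Irgm2 on the log2 scale and adjusted p from 0.954 to 0.969. With the lane as a term the fold changes were 0.04, 0.29 and 0.39 (limma adjusted p = 0.944, 0.370 and 0.275). The spread of Irgm2 was the widest, with an SE of 0.59 without the lane and 0.19 with it.

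Lane 7 against lane 5 was a strong contrast for most members. In the fit with both terms Irgm2 stood lower in lane 7 by a log2 difference of -1.60 (SE 0.19, limma adjusted p = 0.000254), which put it at percentile 0.8 of all genes tested, where the median gene differed by -0.50. Igtp differed by -0.995 (limma adjusted p = 0.000978) and Irgm1 by -0.89 (limma adjusted p = 0.00168). Gbp3, Gbp7 and Gbp2 differed by -0.70, -0.69 and -0.66, all past the threshold in limma. Iigp1 did not pass, with -0.23 (SE 0.22, limma adjusted p = 0.350). The count of 6 lower of 7 tested stands beside 58.2% of all genes called lower. After centring each library on its median gene, Irgm2, Igtp and Irgm1 were still called lower in lane 7, by -1.11, -0.50 and -0.39 (limma adjusted p = 0.00236, 0.0160 and 0.0146), where 23.9% of all genes were. The other 4 then did not pass. Some myeloid markers also differed by lane within each genotype, in both directions, and erythroid markers differed by lane in wild type. The complement gene C1qa had 146.1 and 201.3 FPKM in lane 7 cKO and 75.6 FPKM in lane 7 wild type, against 74.6 and 76.8 FPKM in lane 5 cKO and 17.7 and 10.1 FPKM in lane 5 wild type. Itgax, of the same marker list, went the other way. It had 5.48 and 7.34 FPKM in lane 7 cKO and 2.46 FPKM in lane 7 wild type. In lane 5 it had 15.5 and 23.5 FPKM in cKO and 5.36 and 5.69 FPKM in wild type. Erythroid markers summed to 5947.8 and 3393.8 FPKM in lane 7 cKO and 13203.2 FPKM in lane 7 wild type, against 7745.0 and 1567.0 FPKM in lane 5 cKO and 1702.3 and 1821.8 FPKM in lane 5 wild type. Within wild type the lane 7 library was the highest, while in cKO the erythroid sums of the lanes overlapped. The part of these cells in the lane differences was not tested. The labels say only that the lanes are sequencing lanes, and a difference in preparation between them cannot be told apart.

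Among the guanylate-binding genes, Gbp7 (chromosome 3, 142530338 to 142550083), linked in mouse macrophages to assembly of the phagocyte oxidase, had 7.18, 3.28, 4.25 and 7.15 FPKM in cKO 1 to 4, against 2.92, 4.36 and 3.98 FPKM in wild type 1 to 3. The groups overlapped, but within each lane the cKO libraries were above the wild type ones. Its log2 fold change was 0.44 (SE 0.32, limma adjusted p = 0.799) without the lane. With the lane as a term it rose by 0.55 (SE 0.16, limma adjusted p = 0.0482), a call close to the threshold. The within-lane values were 0.72 in lane 5 and 0.31 in lane 7.

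Gbp2 and Gbp3, on chromosome 3 with Gbp7, had genotype differences of opposite sign in the lanes. The median over all genes tested turned sign as well, at 0.082 in lane 5 and -0.115 in lane 7. For the lane 7 effect minus the lane 5 effect, the median over all genes tested was -0.215, and 20.8% of genes were positive. Gbp2 (142620663 to 142638008), a protein recruited to parasite vacuoles, had 10.9, 4.91, 6.50 and 13.5 FPKM in cKO, against 8.26, 8.12 and 9.49 FPKM in wild type. The lane 5 cKO libraries were above, and the lane 7 cKO libraries below, all wild type libraries. Its log2 difference was 0.45 in lane 5 and -0.51 in lane 7, and -0.05 (SE 0.34, limma adjusted p = 0.981) over all libraries. Gbp3 (142560052 to 142573212) had 12.4, 5.48, 6.51 and 12.6 FPKM in cKO, against 9.07, 12.2 and 9.69 FPKM in wild type. It differed by 0.20 in lane 5, -0.56 in lane 7 and -0.22 (SE 0.33, limma adjusted p = 0.922) over all. In a fit with an interaction of genotype and lane, chosen after these values were seen, the lane 7 effect minus the lane 5 effect was -0.96 for Gbp2 and -0.76 for Gbp3, with limma adjusted p = 0.992 for both, so a difference between the lanes did not pass.

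Gbp6 (chromosome 5, 105270702 to 105293699), from the second Gbp cluster, averaged under the minimum of 1 FPKM over the 7 libraries and was not tested. It had 0.890, 0.264, 0.259 and 0.952 FPKM in cKO, against 0.236, 0.660 and 0.939 FPKM in wild type, with every lane 7 library below every lane 5 library. Of the 50-base stretches of its GENCODE transcripts, 70.7% also occur in transcripts of other genes, so its value is uncertain where reads were split between copies. This share was 12.7% for Gbp7, 11.8% for Igtp (all shared with annotated transcripts of its neighbour Irgm2), 7.77% for Irgm2 and 3.75% or less for the rest.

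**Figure D3:**
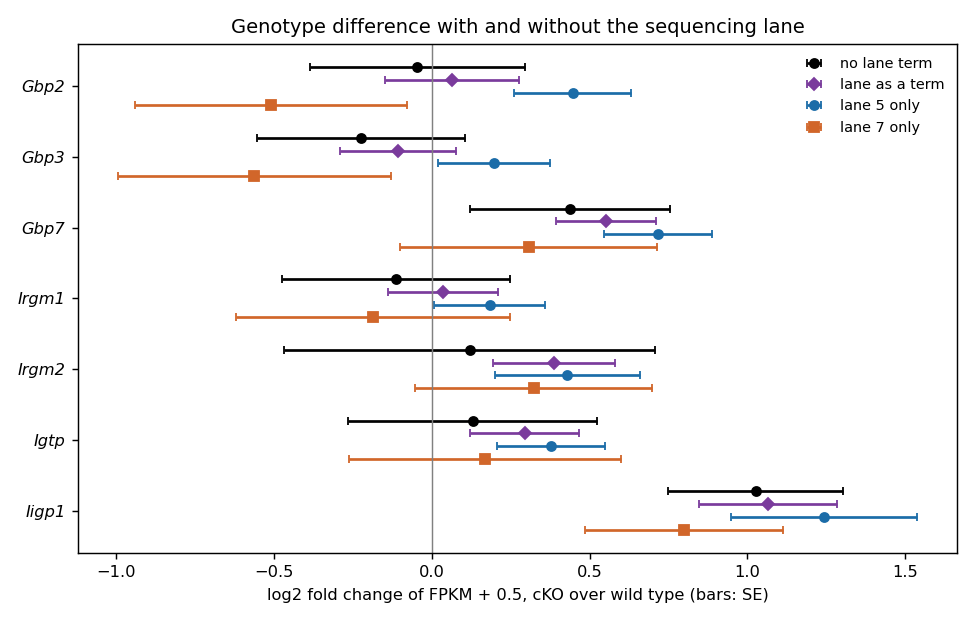
Log2 fold change of FPKM + 0.5, cKO over wild type (x axis, bars are SE), for the 7 genes tested, without a lane term, with the lane as a term, and within each lane. Iigp1 lies right of 0 in all 4 fits, between 0.80 and 1.24, while Gbp2 and Gbp3 lie right of 0 in lane 5 and left of it in lane 7.

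Without the lane limma called 0 of the 7 tested genes, where 1.27% of all genes were called higher and 0.0497% lower. It gave 1 of the 7 an unadjusted p under 0.05, as it did 10.7% of all genes. With the lane as a term it called 2 of 7 higher, Iigp1 and Gbp7, and 0 lower, where 9.59% of all genes were called higher and 1.19% lower. With the lane and median centring together it called the same 2 members higher and 0 lower, where 9.46% of all genes were called higher and 12.7% lower. The median log2 fold change of the 7 was 0.12 without the lane, against -0.09 over all genes tested, and 0.29 with it, against -0.002 over all genes tested. The authors' deposited table, which compares arms q1 and q2 without naming their genotypes, gives Iigp1 a test statistic of 2.35 for q2 over q1 with q = 0.000796. In the authors' deposited table Gbp7 has q = 0.194, and the other 6 have q from 0.749 to 0.962.

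Ratios within a library do not depend on how that library was scaled. Iigp1 amounted to 3.15%, 6.41%, 6.24% and 5.03% of the summed FPKM of Irgm1, Irgm2 and Igtp in cKO 1 to 4, against 2.78%, 1.41% and 1.57% in wild type 1 to 3. Every cKO library was above every wild type library, and in both lanes. Gbp7 made up 22.9%, 23.5%, 24.2% and 20.9% of the summed FPKM of the 4 Gbp genes in cKO, against 14.3%, 17.2% and 16.5% in wild type. These groups did not overlap either. These ratios were formed after the levels had been seen, and no test was made on them. Irgm2 relative to Igtp followed the lane instead, at 0.324 and 0.342 in lane 7 cKO and 0.288 in lane 7 wild type, against 0.457 and 0.638 in lane 5 cKO and 0.495 and 0.539 in lane 5 wild type.

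**Figure D4:**
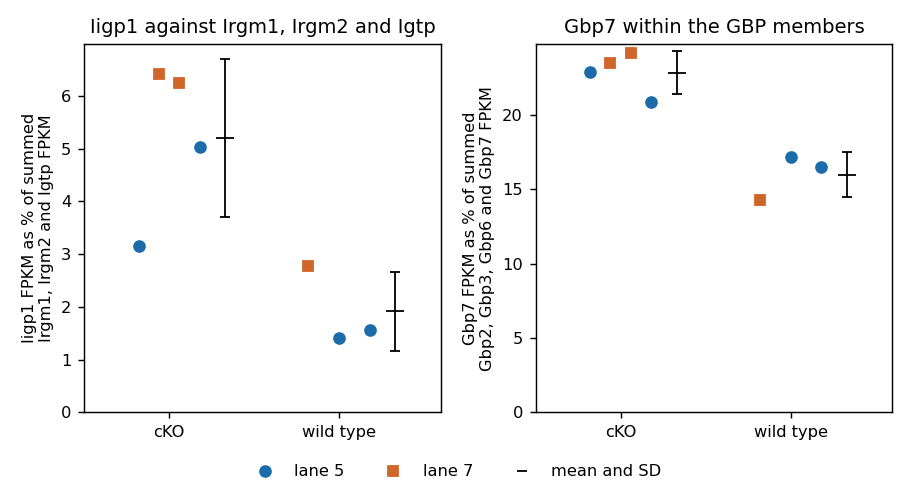
Left, Iigp1 FPKM as a percent of the summed FPKM of Irgm1, Irgm2 and Igtp; right, Gbp7 FPKM as a percent of the summed FPKM of Gbp2, Gbp3, Gbp6 and Gbp7; cKO left of wild type, circles lane 5, squares lane 7, bars mean and SD. Gbp7 lies between 20.9% and 24.2% in cKO and between 14.3% and 17.2% in wild type.

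Other genes of these families were read from a list of 23 symbols, of which 18 were in the table and 11 were tested. Without the lane 1 of the 11 was called higher and 0 lower, where 1.27% of all genes were called higher and 0.0497% lower. The gene called was Gbp8, a member of the chromosome 5 cluster (105014153 to 105053561). It had 5.24, 5.0, 3.67 and 6.56 FPKM in cKO 1 to 4, against 1.33, 1.81 and 1.81 FPKM in wild type 1 to 3, with no overlap and with cKO higher in both lanes. Its log2 fold change was 1.37 (SE 0.26, limma adjusted p = 0.0484). Adding the lane to the fit gave 1.43 (limma adjusted p = 0.000603). Leaving out any 1 library ended this call without the lane, with limma adjusted p from 0.0595 to 0.300 and log2 fold changes from 1.25 to 1.505, as did a pseudocount of 1 (0.05) and no filter on low values (0.0753). Leaving out any library other than wild type 1 brought the genes called higher to 0 over all genes tested, with 557 to 1319 of them at an unadjusted p under 0.05 in limma.

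On chromosome 18 the related genes Gm4951 and F830016B08Rik averaged under 1 FPKM and were not tested. Gm4951 had 0.600, 0.634, 0.842 and 1.10 FPKM in cKO 1 to 4, against 0.369, 0.196 and 0.138 FPKM in wild type 1 to 3. F830016B08Rik had 0.0943, 0.120, 0.112 and 0.206 FPKM in cKO, against 0.0254, 0.0401 and 0.0693 FPKM in wild type. As for Iigp1, every cKO library was above every wild type library for both. This held for 7.99% of all genes tested, which do not include these low genes, and the share among rows this low was not computed. The wild type values of F830016B08Rik lie near the floor. A single fragment on a transcript of 1 kilobase was worth about 0.0183 to 0.0217 FPKM in wild type. The authors' deposited table gives Gm4951 q = 0.00501 for q2 over q1 and did not test F830016B08Rik. Of the 50-base stretches of Iigp1 transcripts, 1.47% also occur in Gm4951.

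Gbp1 of chromosome 3 had 3.21, 2.74, 3.86 and 9.26 FPKM in cKO, against 1.49, 1.86 and 4.61 FPKM in wild type. The groups overlapped, and its log2 fold change of 0.72 did not pass (limma adjusted p = 0.729, and 0.148 with the lane). The authors' deposited table gives Gbp1 q = 0.0348 for q2 over q1. Gm12250, the effector Irgb10, had 9.32, 1.95, 2.91 and 11.3 FPKM in cKO, against 2.17, 6.83 and 9.27 FPKM in wild type, with all lane 7 libraries below all lane 5 libraries. The effector Tgtp2 averaged 4.57 ± 2.72 FPKM in cKO (SD, n = 4) and 4.17 ± 2.22 FPKM in wild type (SD, n = 3). Gbp9, Gbp5 and Gbp4 had log2 fold changes of -0.18, -0.24 and -0.19, Gm5431 of 0.44, and Irgq, 9930111J21Rik1 and Irgc1 of -0.40, -0.58 and -0.68, none of them past limma's threshold without the lane or with it. With the lane and median centring together 4 of these were called, where 9.46% of all genes were called higher and 12.7% lower. Gm5431 was higher, by 0.53 (limma adjusted p = 0.0357). Irgq, 9930111J21Rik1 and Irgc1 were lower, by -0.32, -0.37 and -0.62 (limma adjusted p = 0.0487, 0.0467 and 0.0114). The median of the 11 was -0.18, against -0.09 over all genes tested.

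**Figure D5:**
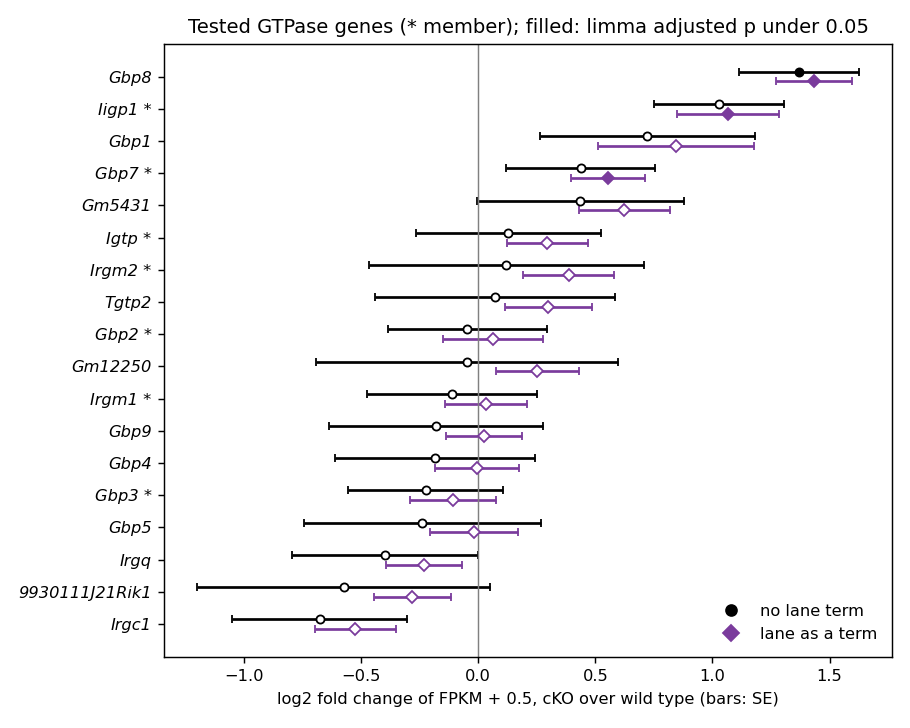
Log2 fold change of FPKM + 0.5, cKO over wild type (x axis, bars are SE), for the 18 tested genes of the guanylate-binding and immunity-related GTPase families, with stars on the 7 members; black circles are without the lane and purple diamonds with it, and filled symbols passed limma's adjusted threshold of 0.05. Gbp8 is filled in both fits, at 1.37 and 1.43, and Iigp1 and Gbp7 with the lane as a term.

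Upstream of these genes, the interferon-gamma gene Ifng had 3.71, 2.95, 1.49 and 1.97 FPKM in cKO 1 to 4, against 1.08, 0.321 and 0.465 FPKM in wild type 1 to 3. The groups did not overlap. Its log2 fold change was 1.43 (SE 0.34, limma adjusted p = 0.104), and it rose by 1.41 once the lane was in the fit (limma adjusted p = 0.00890). NK cells and T cells are known sources of interferon-gamma. The sums of NK markers, 41.0 to 98.3 FPKM in cKO and 17.5 to 24.9 FPKM in wild type, stand beside this value. T cell marker sums were 62.4 and 67.3 FPKM in lane 5 cKO against 27.5 and 31.2 FPKM in lane 5 wild type, and 20.7 and 20.8 FPKM in lane 7 cKO against 16.3 FPKM in lane 7 wild type. NK and T cells carry CD43 and are among the cells that the depletion is meant to remove. The part of either cell type in the Ifng value was not tested.

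The receptor chains of interferon-gamma and the factor Irf1 did not pass. Ifngr1 had a log2 fold change of 0.27 and Ifngr2 of -0.33 (limma adjusted p = 0.918 for both). Irf1, an interferon regulatory factor, averaged 46.4 ± 18.6 FPKM in cKO (SD, n = 4) and 52.3 ± 9.90 FPKM in wild type (SD, n = 3). Of the 19 genes in the list of interferon ligands, receptors, kinases and factors, 0 were called without the lane. An unadjusted limma p under 0.05 was found for 2, beside 10.7% of all genes. With the lane 2 rose, Ifng and the type I receptor chain Ifnar2, beside 9.59% of all genes called higher. Ifnar2 had 22.3, 19.7, 25.4 and 26.5 FPKM in cKO, against 16.2, 14.7 and 15.2 FPKM in wild type. The median of this list was -0.14 without the lane, against -0.09 over all genes tested.

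Among 20 tested interferon-gamma targets other than the GTPases, 0 passed without the lane. An unadjusted limma p under 0.05 was found for 3, beside 10.7% of all genes. With the lane 4 rose, a share to be read beside the 9.59% of all genes. The chemokine gene Cxcl9 had 3.83, 3.13, 3.51 and 5.01 FPKM in cKO, against 1.97, 1.22 and 1.75 FPKM in wild type, a log2 difference of 1.03 (limma adjusted p = 0.111 without the lane, 0.00479 with it). The groups did not overlap. The aminopeptidase gene Lap3 averaged 9.81 ± 2.09 FPKM in cKO (SD, n = 4) and 6.12 ± 1.09 FPKM in wild type (SD, n = 3), with limma adjusted p = 0.366 without the lane and 0.0461 with it. The median of the list was 0.01 without the lane and 0.13 with it.

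Type I interferon targets, given only for comparison, had a median of 0.37 over 24 tested genes, with 1 called without the lane, the RNA sensor gene Ifih1, and 6 with it. Over all genes tested the median was -0.09, and 1.27% were called higher without the lane and 9.59% with it. Ifih1 had 4.74, 3.47, 4.69 and 4.94 FPKM in cKO 1 to 4, against 1.90, 1.54 and 1.45 FPKM in wild type 1 to 3, with no overlap. It rose by 1.22 on the log2 scale (limma adjusted p = 0.0484), and leaving out any 1 library ended that call, with limma adjusted p from 0.0572 to 0.325.

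The machinery that the GTPases work with was read from 3 further lists. The ubiquitin-like conjugation genes of autophagy, which direct these GTPases to vacuoles, had 0 of 13 called without the lane and 0 at an unadjusted p under 0.05, with a median of 0.06. Of all genes tested, 10.7% had an unadjusted limma p under 0.05 without the lane and 23.0% with it. Gabarapl1 stood 0.87 higher on the log2 scale (limma adjusted p = 0.538 without the lane, 0.0228 with it) and Atg5 of -0.31 (limma adjusted p = 0.737). Of the 6 prenylation enzymes, which attach the lipid anchor of some guanylate-binding proteins, 0 were called and 0 had an unadjusted p under 0.05 in either fit; Fntb and Rce1 had log2 fold changes of 0.35 and -0.32 in limma. Of 8 inflammasome genes 1 rose without the lane and 3 with it, beside 1.27% and 9.59% of all genes called higher in the same fits. The gene called without the lane was Nlrp3, a sensor of myeloid cells, with 1.99, 2.04, 3.12 and 2.95 FPKM in cKO, against 0.815, 0.543 and 0.644 FPKM in wild type (log2 fold change 1.36, limma adjusted p = 0.0469). Its call was lost when any library other than wild type 1 was left out, with limma adjusted p from 0.0595 to 0.316. The myeloid marker sums given above were also higher in every cKO library than in every wild type library, and their part was not tested.

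Likeness of expression profiles was measured as the root mean square difference between log2 values, each gene centred on its mean over the 7 libraries. The libraries were not centred, so differences of scale between them enter every profile. Their median genes ran from 5.25 FPKM in cKO 2 to 9.54 FPKM in cKO 4. Whether the members are regulated together was not tested by this measure. The genes closest to the mean profile of the 7 tested members were Ddi2 (0.029), Fnbp1 (0.044), Clasp2 (0.047), Kctd12 (0.057) and Esyt2 (0.059), where the median gene stood 0.319 away. None of these 5 is in the interferon lists used here. For single members the closest gene was Oas2, an interferon-induced nucleotide synthetase, for Gbp7 (0.050), Gab2 for Iigp1 (0.090), Mfge8 for Irgm2 (0.105), Tapbpl for Irgm1 (0.027), Htt for Igtp (0.088), Pecam1 for Gbp2 (0.070) and Lck for Gbp3 (0.082). The members were not each other's closest genes. The nearest other member ranked 166 for Igtp (which was Irgm1), 350 for Irgm2 (Igtp) and 1541 for Irgm1 (Igtp) among 10046 other genes. Gab2 had 0.975 to 2.25 FPKM in cKO and 0.413 to 0.467 FPKM in wild type. It was picked for its likeness to Iigp1 over these same libraries, so the shared absence of overlap is no separate result.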

How the data were processed

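RNA of CD43-depleted splenocytes was measured in 7 libraries, grouped by sample title. The authors deposited FPKM values per gene with a status each, per the file headers. TopHat2, Cufflinks and Cuffdiff are listed without a version, and mm9 as the build, in the submitters' processing notes. Coordinates given here are the table's own: 99.5% of them, over 21440 symbols, overlap the same gene of GRCm38. The authors' deposited table of arms q1 and q2 holds a test statistic (a score) and a p-value and q-value, per the file headers. FPKM hold no counts, so errors are SDs over libraries.

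Of 23845 rows, 23508 had status OK in every library, and 10065 of them averaged at least 1 FPKM. A model per gene on log2(FPKM + 0.5) was fitted to these by limma (version 3.58.1, R 4.3.3), with moderation by eBayes along a mean trend. Tests were two-sided, Benjamini-Hochberg adjusted across the 10065, with a threshold of 0.05. The fit was tested on simulated data. Alternatives covered pseudocount, filter, scaling, limma settings, lane, replicate number and each library left out. The genes and lists were chosen with earlier results of these data known. Named genes were the members, other family genes tested, interferon-gamma pathway genes by role, genes of each list past the threshold or else its 2 smallest p, the 2 most abundant myeloid markers and the nearest profiles; Gm12250 values, within-library ratios and further values named with a result were added afterwards. A gene that this rule names is not reported here. Figures were drawn with matplotlib 3.10.9.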

Additional observations from a re-analysis of the deposited data

How the results depend on the processing

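Iigp1 and Gbp7 kept a positive log2 fold change in all 19 alternatives run for each, Iigp1 from 0.765 to 1.32 and Gbp7 from 0.29 to 0.72, and adjusted p for Iigp1 lay between 0.00842 and 0.592. Without the lane, 128 genes were called higher and 5 lower over all genes. With each library left out in turn these counts were 0 to 216 and 0 to 4: leaving out wild type 1 gave the 216, and any other library 0 higher, with 557 to 1319 at an unadjusted p under 0.05 in limma. Higher and lower counts were 54 and 1 with a pseudocount of 1, 0 and 0 with no filter (1966 and 271 at an unadjusted p under 0.05), 6 and 0 with a mean of at least 5 FPKM (90 lower unadjusted), 233 and 71 with median centring, 965 and 120 with the lane, 952 and 1276 with the lane and median centring, 587 and 25 in lane 5, 247 and 36 in lane 7, and 0 and 0 with the replicate block (995 and 159 at an unadjusted p under 0.05). At a threshold of 0.10, 217 were higher. Lower counts were 1 with a pseudocount of 0.1, 29 with quantile normalization and 3 without a trend. Members called higher were 1 with median centring and 2 with the lane, also with median centring added, and 0 otherwise.

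Signs turned, none past the threshold, as follows. With the lane Gbp2 had 0.06, Irgm1 0.04, Gbp9 0.02 and Gm12250 0.25 (0.16 with median centring). In lane 5 Gbp2 had 0.45, Gbp3 0.20, Irgm1 0.18, Gbp4 0.06, Gbp5 0.12, Gbp9 0.04, Gm12250 0.34, Ifngr2 0.01 and Irf1 0.04. In lane 7 Gm12250 had 0.11 and Gbp9 0.00. With the replicate block Irgm2 had -0.23, Igtp -0.05 and Tgtp2 -0.21. Leaving out 1 library gave ranges of -0.27 to 0.19 for Gbp2, -0.34 to 0.14 for Irgm1, -0.39 to 0.49 for Irgm2, -0.16 to 0.41 for Igtp, -0.51 to 0.08 for Gbp4, -0.61 to 0.09 for Gbp5, -0.58 to 0.08 for Gbp9, -0.60 to 0.35 for Gm12250 and -0.36 to 0.41 for Tgtp2. The cause was not tested. Same-numbered libraries deviated with correlations of -0.41, -0.5 and -0.69. Each such pair lies on different lanes, so these values cannot tell whether the numbers pair libraries. In lane 7 alone the spread comes from 2 cKO libraries, the lone wild type library is assumed to vary like them, and these values carry little weight. cKO 4 was the shallowest library, where a single fragment on a transcript of 1 kilobase was worth about 0.0243 FPKM. It held the highest values of the low genes Iigp1 and Gbp6, 3.36 and 0.952 FPKM. Its median gene was also the highest of all libraries, at 9.54 FPKM. Relative to the median gene of each library, Iigp1 was at -1.92, -1.56, -1.42 and -1.38 in cKO 1 to 4 on the log2 scale.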
